A study of Homo sapiens with 18 samples.

Results

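PYGM and PFKP encode enzymes at either end of the route from stored glycogen to glycolysis, and in the same leukaemia clones their transcripts stood on opposite sides of the parental level. Both genes were selected on these same levels, by how their clones stood against parental cells in the 6 groups, so all their values are given as a description, without a test. They are 2 of the 5069 distinct sets of values in the deposited RNA-sequencing table, 2320 of which have a settled symbol. Each of the 2 symbols stood on 1 line, and no other line held the values of either gene, so each name rests on that single printed symbol.

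The samples were OCI-AML3 and OCI-AML2 cells, established human acute myeloid leukaemia lines. OCI-AML3 is labelled NPM1c+, meaning that it carries a mutated nucleophosmin that sits in the cytoplasm, and OCI-AML2 is labelled NPM1WT. From each line, 2 clones labelled as CRISPR/Cas9 knockouts of CASP2, the gene of caspase-2, were compared with the parental cells, which are labelled as CASP2 wild type. The 6 groups are thus OCI-AML3 clone 1, clone 2 and parental cells, and OCI-AML2 clone 1, clone 2 and parental cells, with 3 libraries each and 18 in all. No group received a treatment, each knockout group is a single clone, and both clones of a line share the same 3 parental libraries. The study asked what loss of caspase-2 does in cells with wild-type and with mutated NPM1.

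Glycogen is a branched store of glucose. Glycogen phosphorylase cuts glucose units from its ends as glucose-1-phosphate, which then enters glycolysis. It exists as muscle (PYGM), liver (PYGL) and brain (PYGB) isozymes, and PYGM is known above all from skeletal muscle. Phosphofructokinase carries out the committed step of glycolysis, the phosphorylation of fructose-6-phosphate, and exists as platelet (PFKP), muscle (PFKM) and liver (PFKL) isozymes that combine into tetramers. Leukaemia cells, like other fast-dividing cells, commonly run glycolysis at a high rate.

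In GENCODE release 29 (GRCh38), PYGM lies on the minus strand of chromosome 11 (64746389 to 64760297), with 20 exons and 2526 coding bases in the transcript used here. PFKP lies on the plus strand of chromosome 10 (3066333 to 3137712), with 22 exons and 2352 coding bases. The coding sequence of PYGM is identical to that of PYGB at 78.5% of 2526 aligned bases and to that of PYGL at 73.9%. PFKP is identical to PFKL at 69.1% of 2310 aligned bases and to PFKM at 68.9% of 2319. Sequences are shown because reads from isozymes can be told apart only where their transcripts differ. Each window below holds the 60 coding bases in which the isozymes of its family are most alike, 5′ to 3′ on the transcript strand. Capitals in the PYGM and PFKP lines mark bases that differ in at least 1 isozyme, and capitals in the other lines mark bases that differ from PYGM or PFKP.
PYGM: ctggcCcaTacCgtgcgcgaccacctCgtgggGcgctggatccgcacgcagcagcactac
PYGL: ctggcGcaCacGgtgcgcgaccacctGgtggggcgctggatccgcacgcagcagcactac
PYGB: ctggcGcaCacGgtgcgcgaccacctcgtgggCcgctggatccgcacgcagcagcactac
PFKP: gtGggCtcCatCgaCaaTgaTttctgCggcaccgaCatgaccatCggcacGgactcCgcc
PFKM: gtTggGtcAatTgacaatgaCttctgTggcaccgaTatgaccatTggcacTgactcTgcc
PFKL: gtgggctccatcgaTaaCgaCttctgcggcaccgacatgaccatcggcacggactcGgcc
The windows of PYGL and PYGB differ from PYGM at 4 bases each, and those of PFKM and PFKL from PFKP at 10 and 4 bases. Over the whole transcripts, 5 of the 3168 stretches of 31 bases in PYGM (0.158%) also occur in another gene, which is PYGL. In PFKP 96 of 2624 stretches (3.66%) do so. They are shared with PFKL (5 stretches) and with AL451164.3, a gene whose exons overlap 120 of the 4836 exon bases of PFKP. None of the 2624 is shared with PFKM. How the authors' counting treated shared reads is not given in the sources used here.

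PYGM was abundant in the OCI-AML3 clones labelled as knockouts and close to the bottom of the scale in every other group. Values are TPM, a level scaled for transcript length and library size. PYGM stood at 194.89, 200.36 and 195.16 TPM in OCI-AML3 clone 1 and at 223.79, 231.69 and 210.57 TPM in clone 2, against 0.42, 0.24 and 0.24 TPM in OCI-AML3 parental cells. All 6 clone libraries thus lay far above all 3 parental ones. The means were 197 ± 3.08 TPM in clone 1 and 222 ± 10.7 TPM in clone 2, against 0.300 ± 0.104 TPM in parental cells (SD, n = 3 each). These are ratios of 656 and 740.1 to the parental mean. Because the parental values lie near 0, the ratios carry a large error (SD 227 and 259), and they span 596 to 925 when single libraries are left out.

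Within OCI-AML3 the clones also differed a little from each other. The PYGM mean of clone 2 was 1.13 times that of clone 1, and their libraries did not overlap. On the log2(TPM + 1) scale, which damps ratios of low values, PYGM was 7.25 higher in clone 1 and 7.42 higher in clone 2 than in parental cells (SE 0.08). Among the 4413 sets that reached 1 TPM in 3 or more libraries, these differences ranked 3 and 2 from the highest. PYGM reached this minimum through the OCI-AML3 clones alone and was selected on such differences, so the ranks only describe it. By level, 97.2% and 97.5% of the 5069 sets lay below PYGM in clone 1 and clone 2, and 18.8% did so in OCI-AML3 parental cells.

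In OCI-AML2 the levels of PYGM were low throughout. PYGM was listed at 0.74, 0.91 and 0.73 TPM in clone 1 and 0.81, 0.83 and 0.79 TPM in clone 2, against 0.37, 0.27 and 0.44 TPM in OCI-AML2 parental cells. All 6 clone libraries were above the 3 parental ones, yet all 9 stayed below 1 TPM. The clone means were 0.793 ± 0.101 and 0.810 ± 0.02 TPM, against 0.360 ± 0.0854 TPM in parental cells, which gives ratios of 2.20 and 2.25. The log2 differences were 0.40 and 0.41 (SE 0.08). The 2 OCI-AML2 clones overlapped each other, and so did the parental cells, with OCI-AML3 at a mean of 0.833 times that of OCI-AML2. From highest to lowest, PYGM therefore ran from OCI-AML3 clone 2 through OCI-AML3 clone 1, the overlapping OCI-AML2 clones and the overlapping parental groups.

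PFKP was lower in the OCI-AML3 clones labelled as knockouts than in their parental cells, and it was well expressed everywhere. It stood at 44.73, 39.9 and 41.23 TPM in OCI-AML3 clone 1 and at 40.41, 42.09 and 39.25 TPM in clone 2, against 109.3, 118.63 and 98.61 TPM in parental cells. The highest clone library was below the lowest parental library, and the 2 clones overlapped. The means of 42.0 ± 2.49 and 40.6 ± 1.43 TPM were 38.5% and 37.3% of the parental mean of 108.85 ± 10.0 TPM. On the log2(TPM + 1) scale the differences were -1.35 and -1.40 (SE 0.08). They ranked 468 and 421 from the lowest among the 4413 sets.

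In OCI-AML2 the clones did not share a direction for PFKP. Clone 1 held 68.39, 68.45 and 72.87 TPM and clone 2 held 88.8, 111.5 and 96.26 TPM, against 93.82, 90.04 and 84.17 TPM in parental cells. Clone 1 lay below the parental libraries without overlap, at 78.2% of their mean, whereas clone 2 overlapped them at 111% of their mean. Clone 2 lay above clone 1 in every library, with a ratio of means of 1.41. The log2 differences from parental cells were -0.35 in clone 1 and 0.14 in clone 2 (SE 0.08). Between the parental cells, the PFKP mean of OCI-AML3 was 1.22 times that of OCI-AML2, and the libraries did not overlap. How many of all sets also failed to overlap was not counted. In the limma test described below, 90.6% of tested sets differed between the parental cells. In both OCI-AML3 clones, 67.1% differed from parental cells in the same direction. A lack of overlap alone therefore does not set PYGM or PFKP apart.

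**Figure D1:**
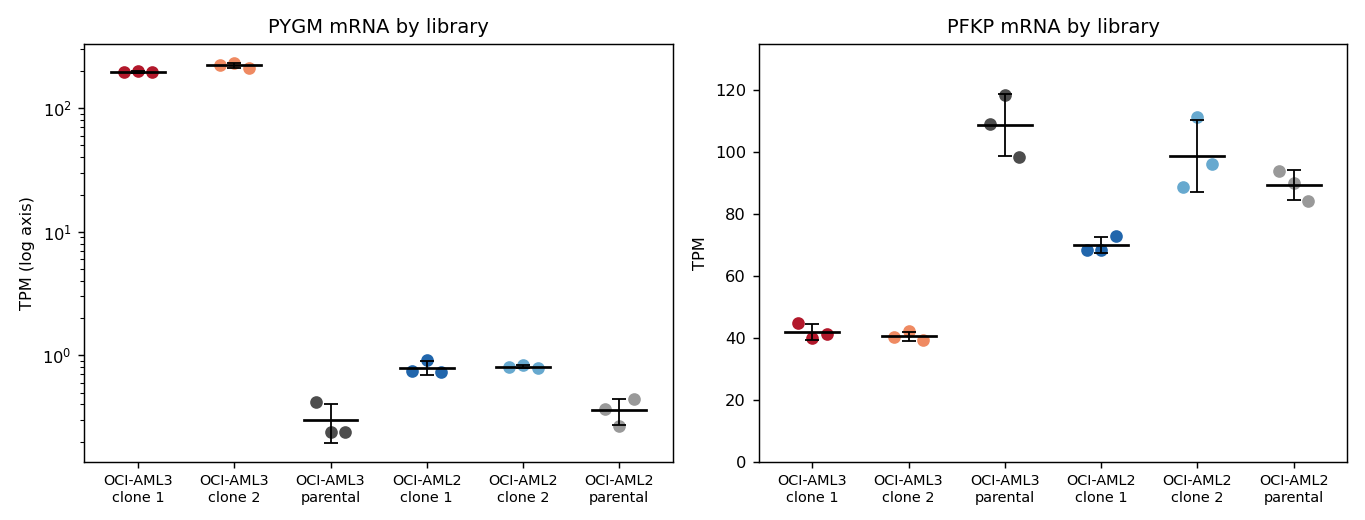
Level of PYGM (left, log axis) and PFKP (right, linear axis) in TPM in each of the 18 libraries, with 1 point per library, a line at each group mean and whiskers for the SD. PYGM lies near 200 TPM in both OCI-AML3 clones and below 1 TPM in the other 4 groups, whereas PFKP is lowest in those same clones, at 39.25 to 44.73 TPM.

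In order of level, PFKP in OCI-AML3 parental cells overlapped OCI-AML2 clone 2, which overlapped OCI-AML2 parental cells. Below these stood OCI-AML2 clone 1 and then both OCI-AML3 clones, without overlap between the lines. Across the 18 libraries the log2 levels of PYGM and PFKP had a Pearson r of -0.938. This coefficient describes 2 clusters of libraries, the 6 of the OCI-AML3 clones and the other 12, and says little within either. The difference between the lines, taken as the mean clone difference in OCI-AML3 minus that in OCI-AML2, was 6.93 for PYGM (SE 0.09) and -1.27 for PFKP (SE 0.10).

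In these bulk samples, a change in the make-up of a culture and a change in RNA per cell cannot be told apart. Levels of the targeted gene differed between the lines. CASP2 averaged 27.1 ± 0.745 TPM in OCI-AML3 clone 1 and 32.1 ± 2.92 TPM in clone 2, against 28.7 ± 1.19 TPM in parental cells (limma adjusted p = 0.537 and 0.24). In OCI-AML2 it fell to 3.50 ± 0.470 and 4.45 ± 1.02 TPM in the clones, against 36.1 ± 1.07 TPM in parental cells (adjusted p = 1.66e-13 and 4.18e-13). The mRNA level therefore does not check the labels of the OCI-AML3 clones, and the same holds for every OCI-AML3 result here. CASP2 too stood on 1 line, so its name rests on that single printed symbol.

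Because PYGM is the muscle isozyme, markers of skeletal muscle were set beside it. Of 15 listed muscle genes 3 could be read in the table. Their summed level was 4.04 to 6.86 TPM in OCI-AML3 clone 1 and 5.36 to 7.91 TPM in clone 2, against 13.16 to 17.28 TPM in parental cells. In OCI-AML2 it was 66.64 to 107.6 TPM in clone 1 and 39.15 to 57.27 TPM in clone 2, against 76.67 to 78.33 TPM in parental cells. DES, which encodes the muscle filament protein desmin, was listed at 0 in all 6 OCI-AML3 clone libraries. Its level in OCI-AML3 parental cells was itself near 0, at 0.197 ± 0.0808 TPM. CKM, muscle creatine kinase, was higher in the OCI-AML3 clones, at 1.14 ± 0.221 and 1.64 ± 0.376 TPM against 0.173 ± 0.0493 TPM in parental cells (adjusted p = 2.56e-05 and 7.07e-07). TNNT1, slow skeletal troponin T, fell there to 4.76 ± 1.47 and 4.90 ± 1.03 TPM, against 14.7 ± 2.04 TPM in parental cells. The summed level is mostly TNNT1, so its low value in the OCI-AML3 clones is that of 1 gene, while CKM went the other way there. In OCI-AML2 the sum hides opposite directions too. DES was higher in OCI-AML2 clone 1 and 2, at 2.42 ± 0.272 and 1.26 ± 0.260 TPM, against 0.193 ± 0.0814 TPM in parental cells. It reached the 1 TPM minimum through these clones alone. CKM was lower in them, at 2.34 ± 0.336 and 1.70 ± 0.247 TPM, against 4.54 ± 1.18 TPM in parental cells.

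For PFKP, the platelet isozyme, 1 of 4 platelet and megakaryocyte markers could be read. ITGA2B, the platelet integrin chain, ranged from 0.19 to 0.69 TPM in OCI-AML3 clone 1 and from 0.22 to 0.43 TPM in clone 2, against 2.57 to 2.98 TPM in parental cells. Of 15 myeloid markers 3 could be read, and their summed level was 1386 to 1449 TPM in OCI-AML3 clone 1 and 1532 to 1777 TPM in clone 2, against 1263 to 1585 TPM in parental cells. In OCI-AML2 this sum was 5791 to 7843 TPM in clone 1 and 2138 to 2753 TPM in clone 2, against 1895 to 2350 TPM in parental cells, nearly all of it AZU1, a granule protein of neutrophil precursors. CD14, a monocyte co-receptor, averaged 42.1 ± 1.30 and 50.2 ± 2.81 TPM in the OCI-AML3 clones, against 0.813 ± 0.440 TPM in parental cells (adjusted p = 1.06e-15 and 5.56e-16). In OCI-AML2 it went the other way, to 3.63 ± 0.0656 and 3.09 ± 0.347 TPM in the clones, against 6.44 ± 0.945 TPM in parental cells (log2 differences -0.68 and -0.86, adjusted p = 0.000179 and 9.8e-06). ITGAM, an integrin chain of mature myeloid cells, differed in the opposite direction to CD14 in both lines. In OCI-AML3, however, ITGAM lay near 0, at 0.24 TPM or less in every library. It was lower in the OCI-AML3 clones (0.02 and 0.0533 TPM against 0.200 TPM, log2 differences -0.23 and -0.19, adjusted p = 0.00452 and 0.0179). In the OCI-AML2 clones, the groups through which it reached the 1 TPM minimum, it stood at 1.39 ± 0.197 and 1.38 ± 0.0964 TPM against 0.283 ± 0.0513 TPM (log2 differences 0.89 in both). No erythroid marker of 4 could be read. The part of these markers in the PYGM and PFKP levels was not tested.

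The rest of the pathway was read from lists of genes for glycogen, phosphofructokinase, glycolysis, transport, pyruvate use and regulation. Apart from PYGM and PFKP, 15 of these genes were in the table with a settled symbol. PYGL, PYGB and PFKL are not analysed here. The 15 genes were tested with limma's moderated test on log2(TPM + 1), with p-values adjusted by Benjamini-Hochberg over all 4413 sets and a threshold of 0.05. All 15 reached the minimum of 1 TPM in 3 libraries, but SLC16A7 and PDK4 did so through the OCI-AML3 clones alone, which selects for a higher value there. SLC2A4 reached it in 4 libraries, those of OCI-AML3 parental cells and a single one of OCI-AML2 clone 1. That selects for a lower value in the OCI-AML3 clones. These genes stay in the counts below. In OCI-AML3 clone 1, 13 of the 15 passed (8 higher, 5 lower), and in clone 2 14 passed (8 higher, 6 lower). The background is high, because in clone 1 72.2% of all sets passed (31.3% higher, 41% lower) and in clone 2 73.1% passed (31.6% higher, 41.5% lower). The median log2 difference of the list was 0.79 and 0.76, beside -0.06 for all sets in both clones. In each clone this list median is the value of PDK4, which was selected through these same clones. It is therefore no measure of a shift of the list. In both clones of OCI-AML3, 8 list genes were higher and 5 lower, where 67.1% of all sets passed in both in 1 direction (28.7% higher, 38.3% lower). In OCI-AML2 clone 1, 9 passed (6 higher, 3 lower) beside 56% of all sets (35.1% higher, 20.9% lower). In OCI-AML2 clone 2, 10 passed (7 higher, 3 lower) beside 65.7% (38.3% higher, 27.5% lower). The list medians there were 0.21 and 0.07, beside 0.06 for all sets in each clone. The median in OCI-AML2 clone 1 is the value of SLC2A4, which did not pass there. PDK4 and SLC16A7 lay at or near 0 TPM in all OCI-AML2 libraries, yet stay in these medians and counts. These medians too are no measure of a shift of the list. In both clones of OCI-AML2, 6 list genes were higher and 2 lower, beside 38.4% of all sets (23.8% higher, 14.6% lower).

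**Figure D2:**
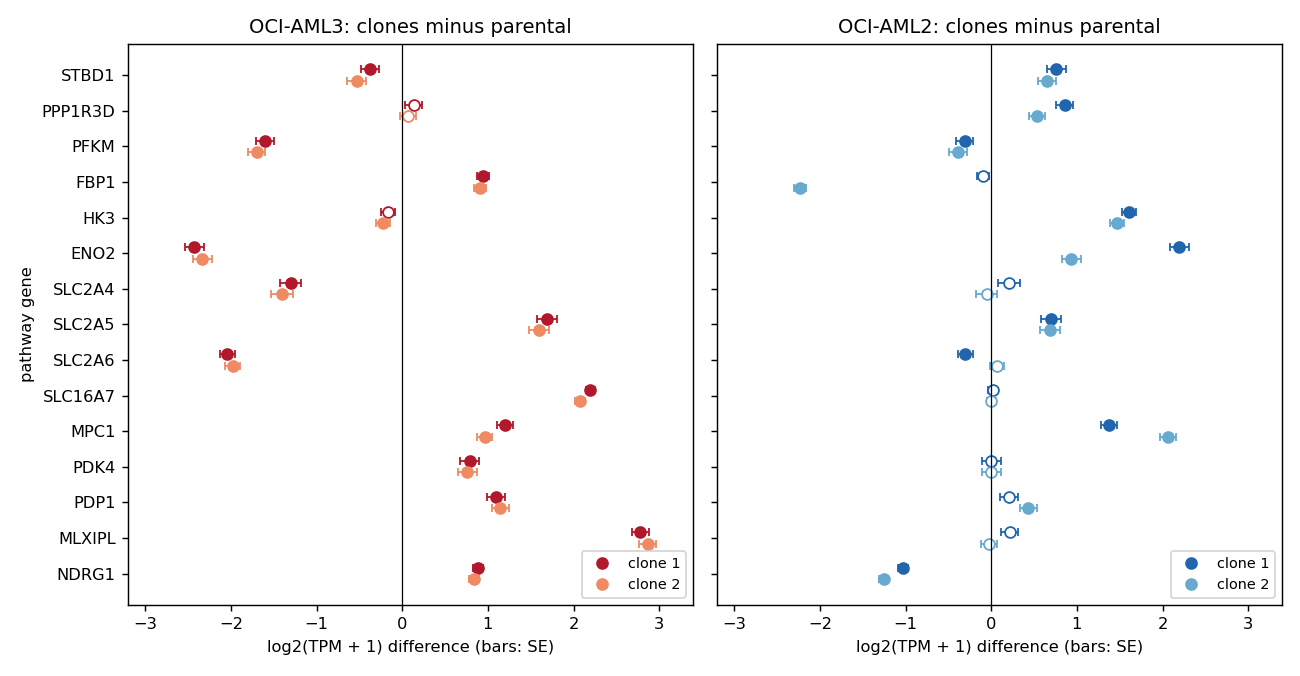
Log2 difference in TPM + 1 between each clone and its parental cells for the 15 pathway genes other than PYGM and PFKP, with OCI-AML3 and OCI-AML2 in separate panels and bars for the SE. Filled points passed at an adjusted p under 0.05 and open points did not; in OCI-AML3 the differences of both clones nearly coincide, from -2.43 for ENO2 to 2.86 for MLXIPL.

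Apart from PYGM, 2 genes of glycogen handling could be read, and both rose in OCI-AML2, while in OCI-AML3 STBD1 fell and PPP1R3D did not pass. STBD1, which tethers glycogen to membranes, stood at 3.72, 3.81 and 3.59 TPM in OCI-AML3 clone 1 and 2.89, 3.34 and 3.43 TPM in clone 2, against 5.64, 4.24 and 5.51 TPM in parental cells. It fell in both clones, by 0.37 and 0.53 on the log2 scale (SE 0.11, adjusted p = 0.00441 and 0.000212). In OCI-AML2 it rose in both, by 0.76 and 0.65 (adjusted p = 8.05e-06 and 3.29e-05). PPP1R3D, which brings protein phosphatase to glycogen, averaged 9.35 ± 0.411 and 8.89 ± 0.500 TPM in the OCI-AML3 clones, against 8.45 ± 0.482 TPM in parental cells. These differences of 0.13 and 0.07 did not pass (adjusted p = 0.229 and 0.562), but did after rescaling by medians of ratios (0.27 and 0.22, adjusted p = 0.0126 and 0.0349). In OCI-AML2 PPP1R3D rose by 0.86 and 0.54 (adjusted p = 4.81e-07 and 8.09e-05), to 4.69 ± 0.618 and 3.54 ± 0.300 TPM, against 2.14 ± 0.355 TPM in parental cells.

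At the phosphofructokinase step, PFKM fell in the same OCI-AML3 clones in which PFKP was low. It stood at 16.94, 16.44 and 14.38 TPM in OCI-AML3 clone 1 and 16.42, 13.81 and 14.06 TPM in clone 2, against 45.51, 57.85 and 47.84 TPM in parental cells. The groups did not overlap, and the log2 differences were -1.60 and -1.70 (SE 0.10, adjusted p = 1.4e-10 and 5.93e-11). In OCI-AML2 PFKM averaged 0.607 ± 0.0814 TPM in clone 1 and 0.523 ± 0.104 TPM in clone 2, against 1.00 ± 0.193 TPM in parental cells. It passed as lower in both (-0.31 and -0.39, adjusted p = 0.0158 and 0.00293), but in clone 1 it did not pass without parental replicate 3 (adjusted p = 0.0907) or without clone 1 replicate 1 (0.0522). Per length, PFKP was the higher of these 2 isozymes in every group, at 108.85 against 50.4 TPM in OCI-AML3 parental cells and 89.3 against 1.00 TPM in OCI-AML2 parental cells.

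FBP1, the gluconeogenic enzyme that removes the phosphate that phosphofructokinase adds, was higher in the OCI-AML3 clones. It stood at 52.47, 54.95 and 50.97 TPM in clone 1 and 53.32, 53.23 and 48.88 TPM in clone 2, against 25.12, 26.31 and 29.9 TPM in OCI-AML3 parental cells. It rose by 0.94 and 0.91 on the log2 scale (SE 0.07, adjusted p = 8.49e-10 and 1.29e-09). In OCI-AML2 it fell by 2.23 in clone 2 (adjusted p = 1.09e-14), to 6.31 ± 0.308 TPM against 33.3 ± 1.42 TPM in parental cells. In OCI-AML2 clone 1, at 31.1 ± 1.16 TPM, the difference of -0.09 did not pass (adjusted p = 0.273), although it did after rescaling (-0.21, adjusted p = 0.0109).

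Of the other glycolytic enzymes, ENO2 and HK3 could be read. ENO2, the neuronal enolase of the lower part of glycolysis, moved in opposite directions in the lines. It stood at 2.96, 3.47 and 4.09 TPM in OCI-AML3 clone 1 and 3.2, 4.1 and 4.12 TPM in clone 2, against 24.27, 21.95 and 23.37 TPM in parental cells. It fell by 2.43 and 2.34 on the log2 scale (SE 0.11, adjusted p = 1.06e-12 and 1.8e-12). In OCI-AML2 it rose by 2.20 in clone 1 and 0.94 in clone 2, to 18.4 ± 1.11 and 7.11 ± 0.642 TPM, against 3.25 ± 0.537 TPM in parental cells (adjusted p = 1.19e-11 and 6.53e-07). HK3, the hexokinase of myeloid cells, rose in OCI-AML2 by 1.61 and 1.47, to 15.2 ± 1.01 and 13.6 ± 0.159 TPM against 4.32 ± 0.432 TPM. In OCI-AML3 HK3 was below 0.3 TPM in every library, and its fall of 0.23 in clone 2 (adjusted p = 0.0189) did not pass without parental replicate 1 (0.0682), without clone 2 replicate 2 (0.0614) or after rescaling (0.0538). Its difference of -0.17 in clone 1 did not pass (adjusted p = 0.078), but did with a pseudocount of 0.1 TPM (-0.89, adjusted p = 0.00785), in a fit of OCI-AML3 alone (0.039) or without clone 1 replicate 3 (0.0252).

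Sugar and lactate carriers went in both directions. SLC2A5, the fructose carrier GLUT5, stood at 127.42, 123.62 and 139.26 TPM in OCI-AML3 clone 1 and 117.23, 129.08 and 117.99 TPM in clone 2, against 35.75, 36.63 and 47.19 TPM in parental cells. It rose by 1.69 and 1.59 there, and by 0.70 and 0.68 in the OCI-AML2 clones (SE 0.12, largest adjusted p = 5.02e-05). SLC16A7, the monocarboxylate carrier MCT2, was expressed in the OCI-AML3 clones, at 3.76, 3.66 and 3.44 TPM in clone 1 and 3.11, 3.25 and 3.37 TPM in clone 2. It lay between 0 and 0.02 TPM in the 12 libraries outside these clones, a pattern like that of PYGM at a lower level. Like PYGM, it entered the fit through the OCI-AML3 clones alone, so its log2 differences there of 2.20 and 2.08 are given without a p. SLC2A6 fell in the OCI-AML3 clones by 2.04 and 1.98, to 2.55 ± 0.281 and 2.70 ± 0.139 TPM, against 13.6 ± 0.495 TPM in parental cells. SLC2A4, the insulin-responsive carrier GLUT4, was lower there by 1.30 and 1.41, at 0.310 ± 0.260 and 0.207 ± 0.0503 TPM against 2.20 ± 0.283 TPM. It met the minimum through OCI-AML3 parental cells, which selects for this direction, so no p is given for it there. In OCI-AML2, SLC2A6 fell by 0.30 in clone 1 (adjusted p = 0.00646), whereas its difference of 0.07 in clone 2 and those of SLC2A4 (0.21 and -0.06) did not pass (adjusted p = 0.542, 0.177 and 0.745).

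MPC1, PDK4 and PDP1, which act on pyruvate or its dehydrogenase, were higher in both OCI-AML3 clones. MPC1, a subunit of the mitochondrial pyruvate carrier, stood at 74.56, 75.19 and 75.34 TPM in clone 1 and 59.66, 64.28 and 66.88 TPM in clone 2, against 30.64, 30.8 and 35.07 TPM in OCI-AML3 parental cells. It rose by 1.20 and 0.96 (SE 0.09, adjusted p = 9.53e-10 and 1.96e-08), and by 1.37 and 2.06 in the OCI-AML2 clones. PDK4, a kinase that switches pyruvate dehydrogenase off, averaged 2.00 ± 0.552 and 1.91 ± 0.306 TPM in the OCI-AML3 clones, against 0.727 ± 0.218 TPM in parental cells (log2 differences 0.79 and 0.76), and was listed at 0 in all 9 OCI-AML2 libraries. It too reached 1 TPM in the OCI-AML3 clones alone, so no p is given. PDP1, a phosphatase that switches the same enzyme on, rose by 1.10 and 1.15 in the OCI-AML3 clones, to 30.6 ± 2.30 and 31.7 ± 0.491 TPM, against 13.8 ± 0.262 TPM in parental cells. In OCI-AML2 PDP1 rose by 0.43 in clone 2 (adjusted p = 0.00101). Its difference of 0.21 in OCI-AML2 clone 1 did not pass (adjusted p = 0.0948), but did without clone 1 replicate 3 (0.0191) or without clone 2 replicate 2 (0.0466).

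Of the regulators, MLXIPL and NDRG1 could be read. MLXIPL encodes ChREBP, a transcription factor that responds to glucose. It stood at 96.06, 108.18 and 118.79 TPM in OCI-AML3 clone 1 and 107.34, 131.14 and 104.7 TPM in clone 2, against 14.51, 15.85 and 13.98 TPM in parental cells, which is 7.29 and 7.74 times the parental mean (log2 differences 2.78 and 2.86, SE 0.10, adjusted p = 3.1e-14 and 1.98e-14). All 9 OCI-AML2 libraries held at most 0.35 TPM of MLXIPL. The differences there of 0.21 in clone 1 and -0.03 in clone 2 did not pass (adjusted p = 0.0735 and 0.852), although that of clone 1 did with a pseudocount of 0.1 TPM (0.90, adjusted p = 0.00224), in a fit of OCI-AML2 alone (0.0201), without clone 1 replicate 3 (0.038) or without OCI-AML3 clone 2 replicate 2 (0.0472). NDRG1, a gene induced by hypoxia and stress, stood at 254.23, 261.92 and 275.45 TPM in OCI-AML3 clone 1 and 251.73, 267.94 and 244.86 TPM in clone 2, against 137.84, 148.36 and 139.65 TPM in parental cells. It rose by 0.89 and 0.84 in the OCI-AML3 clones and fell by 1.03 and 1.26 in the OCI-AML2 clones (SE 0.06, largest adjusted p = 3.29e-10).

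**Figure D3:**
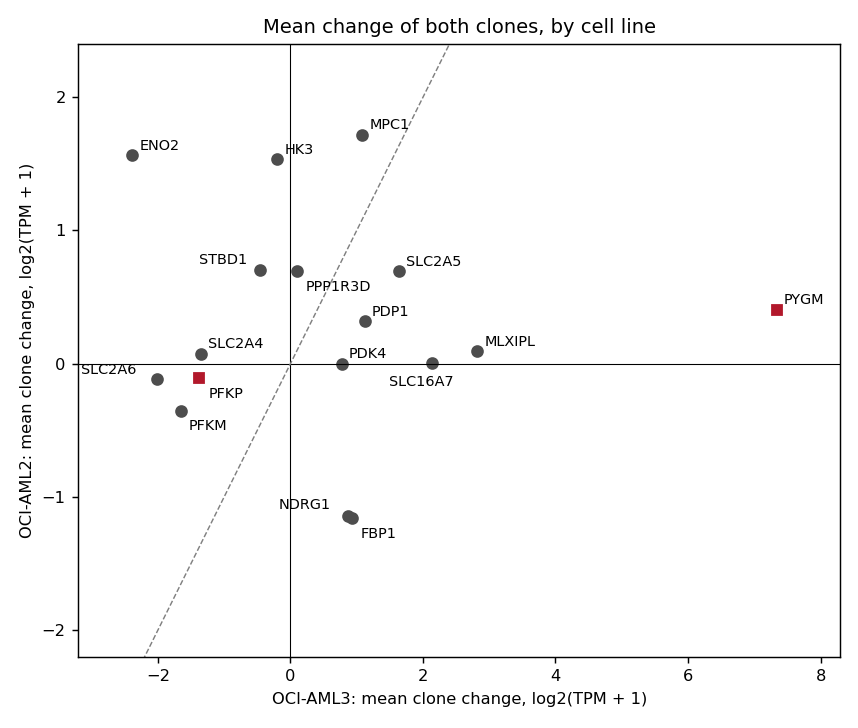
Mean log2 difference in TPM + 1 of both clones from their parental cells, in OCI-AML3 (x axis) and OCI-AML2 (y axis), for PYGM and PFKP (squares) and the 15 other pathway genes (circles). The dashed line marks equal differences; PYGM lies far to the right at 7.34 on the OCI-AML3 axis with 0.41 on the other, and ENO2 lies on opposite sides of 0 at -2.38 and 1.57.

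Tested directly, the mean clone difference in OCI-AML3 minus that in OCI-AML2 passed for all 15 genes. It was higher in OCI-AML3 for 7 and lower for 8, where 81.7% of all sets passed (33.2% higher, 48.5% lower). SLC16A7 and PDK4 are among the 7, and as both lay at or near 0 in OCI-AML2, their values restate the OCI-AML3 differences. MLXIPL, also among the 7, held at most 0.35 TPM in OCI-AML2, so its value mainly restates its OCI-AML3 difference. HK3, among the 8, held at most 0.26 TPM in OCI-AML3, so its value mainly restates its OCI-AML2 difference. SLC2A4, which entered the fit through OCI-AML3 parental cells, is among the 8. The median difference between the lines was -0.60 for the list and -0.23 for all sets, and rescaling by medians of ratios moved the median of all sets by 0.17. Of the 15 genes, 3 passed in both clones of each line with opposite signs between lines, where 12.7% of all sets did so. STBD1 and ENO2 fell in the OCI-AML3 clones and rose in those of OCI-AML2, whereas NDRG1 rose in the OCI-AML3 clones and fell in those of OCI-AML2.

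The parental lines already differed in many of these genes. In OCI-AML3 against OCI-AML2 parental cells, 14 of the 15 passed (10 higher, 4 lower), beside 90.6% of all sets (47.2% higher, 43.4% lower). The median log2 difference was 0.78 for the list and 0.08 for all sets, and the list median is again the value of PDK4. SLC2A4, among the 10, entered the fit through OCI-AML3 parental cells, which selects for a higher value in them. PFKM was 4.68 higher in OCI-AML3 on the log2 scale (adjusted p = 7.81e-18), MLXIPL 3.85 higher (5.27e-17) and ENO2 2.52 higher (1.8e-13), while HK3 was 2.13 lower (2.46e-14). SLC2A5 passed at a difference of 0.34 (adjusted p = 0.0105), but not without OCI-AML2 parental replicate 1 (0.0508), without OCI-AML3 parental replicate 3 (0.0846) or after rescaling (0.0798). PDP1 passed at -0.26 (adjusted p = 0.0202), but not without OCI-AML2 parental replicate 2 (0.0508) or 3 (0.0671), nor without OCI-AML3 parental replicate 1 (0.0522). The parental difference of PYGM was -0.07, but a symbol on a single line was accepted only where the log2 ratio between parental cells was under 0.6, so a large parental difference of PYGM or PFKP could not have been seen.

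To place both genes among the rest, every other set with a settled symbol was ranked by its Pearson r with PYGM or PFKP on log2(TPM + 1) over the 18 libraries, among 2083 candidates. The closest to PYGM were MAGED1 (r = 0.998), GSPT2 (0.998), SLC16A7 (0.997), ZNF518B (0.997) and SPIN3 (0.996). MAGED1, a MAGE family adaptor gene, averaged 25.4 ± 2.68 and 26.9 ± 2.41 TPM in the OCI-AML3 clones and was listed at 0 in the other 12 libraries. GSPT2 (11.4 ± 0.477 and 11.2 ± 1.20 TPM) and SPIN3 (6.41 ± 0.451 and 5.82 ± 0.725 TPM) were also listed at 0 outside the OCI-AML3 clones. These coefficients rest on the step between the same 6 and 12 libraries. Only 2 sets in the table reached 100 TPM in all 6 OCI-AML3 clone libraries while staying below 1 TPM in the other 12, and PYGM is the one with a settled symbol. At a minimum of 10 TPM there were 9 such sets, and at 1 TPM there were 85.

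**Figure D4:**
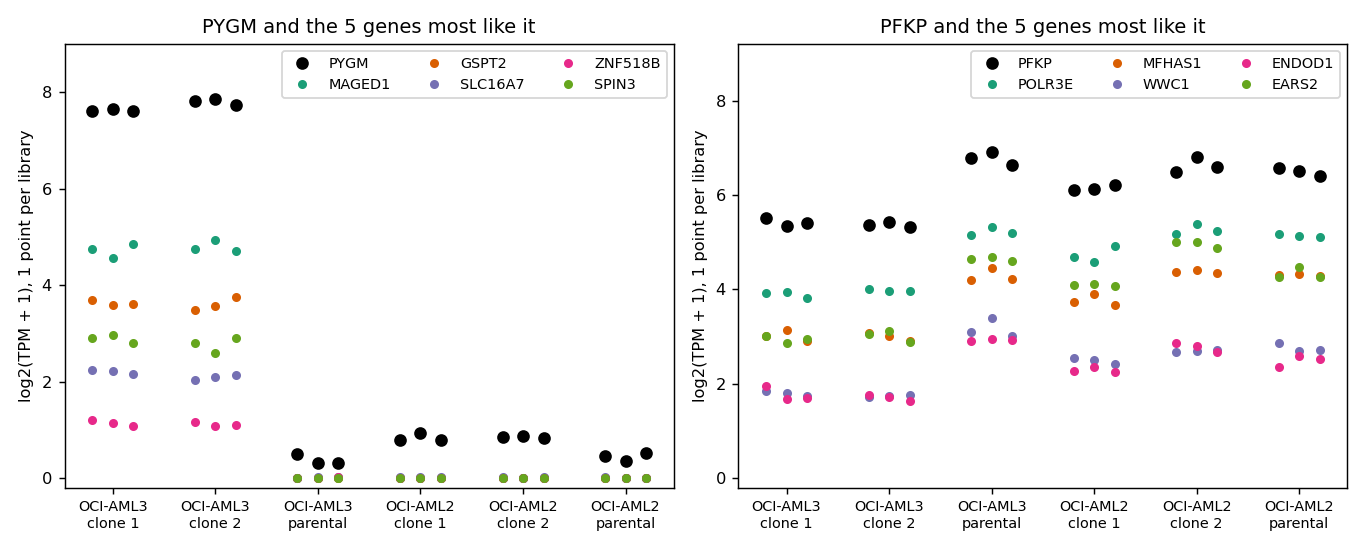
Log2(TPM + 1) in each of the 18 libraries for PYGM (left) and PFKP (right), each with the 5 genes of most similar pattern, 1 point per library. The genes most like PYGM are at or near 0 outside the OCI-AML3 clones, whereas those most like PFKP are expressed in every group and lowest in the OCI-AML3 clones.

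The closest to PFKP were POLR3E (r = 0.984), MFHAS1 (0.972), WWC1 (0.971), ENDOD1 (0.967) and EARS2 (0.966). POLR3E, a subunit of RNA polymerase III, averaged 13.9 ± 0.693 and 14.8 ± 0.205 TPM in the OCI-AML3 clones, against 36.3 ± 2.22 TPM in parental cells. In OCI-AML2 it averaged 25.7 ± 3.08 TPM in clone 1 and 37.8 ± 2.96 TPM in clone 2, against 34.1 ± 0.706 TPM in parental cells. Since these same libraries entered the ranking, the shared order of the groups is what the ranking selected. EARS2, the mitochondrial glutamyl-tRNA synthetase, averaged 6.71 ± 0.384 and 7.12 ± 0.642 TPM in the OCI-AML3 clones, against 24.0 ± 0.674 TPM in parental cells.

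Genes near PYGM and PFKP on their chromosomes did not share one pattern with them. Position was taken from the order of protein-coding genes in RefSeq (GRCh38.p14), and the genes named are the 3 nearest on each side that could be read. Around PYGM, all 6 (NRXN2, CCDC88B, FLRT1, CDC42BPG, TM7SF2 and CDC42EP2) had a lower mean in both OCI-AML3 clones than in parental cells, the opposite of PYGM, where 50.6% of the 4413 tested sets had a lower mean in both. NRXN2 and CDC42BPG were at or below 0.66 TPM in every OCI-AML3 library. FLRT1, a membrane protein gene 24 genes away, averaged 14.4 ± 0.631 and 14.4 ± 0.226 TPM in the clones, against 37.6 ± 1.07 TPM. TM7SF2, a sterol reductase gene 19 genes away, averaged 21.5 ± 0.475 and 22.3 ± 1.34 TPM, against 47.3 ± 1.64 TPM. The contrast with PYGM was not seen throughout OCI-AML2. There NRXN2 (3.89 and 3.08 times parental) and CDC42BPG (2.37 and 1.84 times) were higher in clone 1 and 2, as PYGM was, at low levels. FLRT1 and CCDC88B had lower means in both OCI-AML2 clones. TM7SF2 and CDC42EP2 went opposite ways in the OCI-AML2 clones. Beside PFKP, genes could be read on 1 side only. They are AKR1C1, AKR1C2 and AKR1C3, 5 to 7 genes away, aldo-keto reductases that convert steroids and resemble each other closely in sequence, so reads may have been split between them. AKR1C3 averaged 132 ± 7.35 and 129.52 ± 10.2 TPM in the OCI-AML3 clones against 0.550 ± 0.145 TPM in parental cells, while AKR1C1 averaged 2.15 ± 0.517 and 2.96 ± 0.401 TPM against 10.8 ± 0.483 TPM. In the OCI-AML2 clones both were higher than in parental cells. AKR1C3 averaged 29.4 ± 2.46 and 31.8 ± 5.08 TPM there against 1.84 ± 0.337 TPM, and AKR1C1 23.1 ± 0.622 and 19.2 ± 3.29 TPM against 9.75 ± 0.242 TPM. No test was made of these position patterns.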

How the data were processed

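The deposited table gives TPM per gene for each of 18 RNA-seq libraries, per the file headers. For the aligner, the counting tool, the annotation and the genome build the answer is: not given in the sources used here. Read depth cannot be had from TPM, so counting intervals are left out. All 18 columns matched a sample. The table holds 6999 lines with 4816 symbols, which reduce to 5069 distinct sets of values, and these sum to 170140 to 199403 TPM per library, so only part of each library was seen. Since 1319 sets stand under 2 symbols, a symbol was accepted for a set repeated under 1 symbol (413), through the replicate order of OCI-AML3 clone 1 (1234), or for a single line with a log2 parental ratio under 0.6 (673, PYGM, PFKP and CASP2 among them, with 0.01 TPM added to both means). The log2(TPM + 1) values of all 6 groups entered 1 limma model (version 3.58.1, R 4.3.3) with group means and a trend of variance on level. A set was tested if it reached 1 TPM in 3 or more libraries, which left 4413 sets (2084 with a symbol) and dropped 656. Two-sided p-values were adjusted per comparison over all tested sets (Benjamini-Hochberg), and 0.05 was the threshold. Fold changes on this scale understate those of low genes. The limma calls were tested on simulated data for 1 comparison. The settling of symbols and the comparison of sequences were not tested in this way. Sequences come from GENCODE release 29 transcripts and were compared with Biopython 1.88.

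The genes of interest and the gene lists were chosen with earlier results of these data known. Named are PYGM and PFKP, CASP2, the list genes with a settled symbol in the glycogen, phosphofructokinase and glycolysis lists, those of the other lists called in the same direction in both clones of a line, the marker genes that could be read, the 5 genes most like each of PYGM and PFKP, and the 3 nearest readable genes on each side. ITGAM, AZU1, CD14, CKM, DES, TNNT1 and ITGA2B are named as markers. Nothing in the labels says that the 3 libraries of a group came from separate cultures, so p-values measure only the spread between these libraries, which may be technical. Alternatives were another pseudocount, other minimums, rescaling by medians of ratios, a replicate block, fits within 1 cell line, no intensity trend, every line under its printed symbol, and each library left out in turn.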

Additional observations from a re-analysis of the deposited data

Results flagged for a closer look

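Each of the 15 pathway genes passed a direct test of the clone difference between the cell lines (limma, adjusted p under the threshold of 0.05 in each case). For PDK4 and SLC16A7 this test adds nothing to the OCI-AML3 difference, as given below. For MLXIPL and HK3 it mainly restates the difference of a single line. The values are the mean log2 difference of the OCI-AML3 clones from their parental cells minus the same in OCI-AML2. They were lower in OCI-AML3 for STBD1 (-1.16), PPP1R3D (-0.60), PFKM (-1.30), HK3 (-1.73), ENO2 (-3.95), SLC2A4 (-1.43), SLC2A6 (-1.90) and MPC1 (-0.64). They were higher in OCI-AML3 for FBP1 (2.09), SLC2A5 (0.95), SLC16A7 (2.13), PDK4 (0.77), PDP1 (0.80), MLXIPL (2.73) and NDRG1 (2.01). PDK4 was listed at 0 in all 9 OCI-AML2 libraries and SLC16A7 lay between 0 and 0.02 TPM there, so for both the value restates the OCI-AML3 difference. Both entered the fit through the OCI-AML3 clones alone. SLC2A4 entered it through OCI-AML3 parental cells, which selects for a lower value in the OCI-AML3 clones. MLXIPL held at most 0.35 TPM in OCI-AML2, so on this scale its value mainly restates its mean OCI-AML3 difference of 2.82. HK3 held at most 0.26 TPM in OCI-AML3, so its value mainly restates its mean OCI-AML2 difference of 1.54, with the sign turned. Of all sets, 81.7% passed this test. Groups of 3 libraries are too small for a search for single outlying libraries.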

How the results depend on the processing

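Ratios of mean TPM and log2 differences of PYGM and PFKP in the OCI-AML3 clones had the same direction under all alternatives run. A pseudocount of 0.1 TPM raised the PYGM log2 differences to 8.97 and 9.15 in OCI-AML3 clone 1 and clone 2, and to 0.97 and 1.00 in OCI-AML2. It gave -0.21 for OCI-AML3 against OCI-AML2 parental cells and 8.07 for the difference between lines, which follows from adding less to values near 0. Rescaling by medians of ratios gave PFKP ratios of 0.428 and 0.420 in OCI-AML3 clone 1 and clone 2 and 0.722 in OCI-AML2 clone 1. The PFKP log2 differences became -1.23 in OCI-AML3 clone 2, -0.47 in OCI-AML2 clone 1 and -1.04 between the lines. Under its printed symbols, with repeats kept, the table gave 37, 34, 23, 29, 47 and 39 called lines of the pathway lists, out of 48, in OCI-AML3 clone 1 and 2, OCI-AML2 clone 1 and 2, the parental comparison and the difference between lines. More lines are tested there by construction. The counts of called list genes stayed within 1.5 times under the other alternatives. Single calls that changed under some alternative had adjusted p-values between 0.000719 and 0.0682 for HK3 in OCI-AML3 clone 2, 0.00785 and 0.281 for HK3 in clone 1, and 0.0126 and 0.435, and 0.0349 and 0.843, for PPP1R3D in OCI-AML3 clone 1 and 2. In OCI-AML2 clone 1 they lay between 0.00224 and 0.0907 for PFKM, 0.0109 and 0.578 for FBP1, 0.0191 and 0.384 for PDP1, and 0.00224 and 0.215 for MLXIPL. Between parental cells they lay between 0.00269 and 0.0846 for SLC2A5, and 0.000257 and 0.0671 for PDP1. Apart from the reasons stated, the cause was not tested.

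No pairing of libraries by replicate number was seen. Only 2 of 15 correlations between same-numbered libraries exceeded 0.1 (range -0.343 to 0.177), and 3 of 15 libraries correlated best with their own number. A weak pairing could have been missed. With the number as a replicate block, 13 and 14 list genes passed in the OCI-AML3 clones, 9 and 10 in the OCI-AML2 clones, 14 between parental cells and 15 between lines. The unknown depth limits what can be said of levels below 1 TPM.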
